A study of Homo sapiens with 26 samples.

Results

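AsPC-1 cells in which both promoters of HNF4A were repressed (sgDual) were compared with AsPC-1 cells in which the P2 promoter was repressed (sgP2). The 8 libraries were chosen by their genotype labels, 4 per group, out of 26 in the series. AsPC-1 is an established human pancreatic ductal adenocarcinoma line. Guide RNAs for CRISPR interference, in which an inactive Cas9 held at a promoter lowers its transcription, were labelled sgP2D and sgP2G for P2, and sgDual2 and sgDual3 for both promoters, with 2 libraries each. Cells with a control guide (sgNC, 2 libraries) were used to place both groups, and 4 libraries with guides against the P1 promoter (sgP1E and sgP1J) shared the fit. All groups were grown in the same RPMI medium with serum, and the labels give neither a time after repression nor the positions of the guides. The labels do not say whether replicates were separate cultures, so p-values measure the spread between these libraries, which may be technical.

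HNF4A encodes HNF4α, a nuclear receptor that binds DNA as a homodimer and drives genes of liver, intestine and the classical type of pancreatic tumour. Transcripts from P1 and P2 differ at their 5′ end and give proteins with different N-terminal regions. HNF4G encodes a close relative that binds a similar sequence. The comparison of sgDual with sgP2 asks what changes when the HNF4A left after repression of P2 is also lowered.

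Library totals of the 8 libraries ran from 26079388 to 37015709 counts. KRT8, a keratin of simple epithelia, stood at a mean of 5552 CPM (counts scaled to library size) in sgP2 and 6828 CPM in sgDual. Of 13 leukocyte markers CD3E, CD2, MS4A1 and TYROBP had no counts in any library of these groups. LYZ, the highest of the 13, stood at a mean of 13.2 CPM in sgP2 and 64.5 CPM in sgDual. The mitochondrial share of counts was 7.74% to 8.36% in sgP2, 9.23% to 9.88% in sgDual and 8.37% to 9.24% in sgNC, and its part in the results was not tested. In these bulk samples fewer cells of a type and less RNA per cell cannot be told apart.

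HNF4A was lower in every sgDual library than in every sgP2 library. In sgP2 it stood at 93.9 and 91.4 CPM with sgP2D and at 84 and 76.7 CPM with sgP2G. In sgDual it stood at 3.19 and 10.3 CPM with sgDual2 and at 4.83 and 13.6 CPM with sgDual3. The sgNC libraries had 206 and 219.8 CPM, above both groups, so that sgP2 kept 40.7% of the sgNC mean and sgDual 3.76%. Within sgDual, the libraries numbered replicate 1 were below those numbered replicate 2 for both guides. The log2 fold change of sgDual over sgP2 was -3.43 (SE 0.35, adjusted p = 1.16e-05, edgeR's quasi-likelihood test with Benjamini-Hochberg adjustment). Against sgNC the adjusted p was 0.0751 for sgP2 and 6.25e-06 for sgDual. The gene lies at chr20:44355700-44434596 on the plus strand (GENCODE v29, GRCh38), and HNF4A-AS1 overlaps it on the other strand. The counting's strand setting is not given in the sources used here, so reads of overlapping genes may not have been told apart.

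The start of HNF4A in the RefSeq table is the upstream one, at the 5′ end of the gene, and its window is shown because P2 lies there. It covers chr20:44355449-44355748 on the plus strand (GRCh38.p14), from 250 bases before the start to 50 after it, with the first transcribed base in capitals. The positions of the study's guides within it are not used here.
HNF4A: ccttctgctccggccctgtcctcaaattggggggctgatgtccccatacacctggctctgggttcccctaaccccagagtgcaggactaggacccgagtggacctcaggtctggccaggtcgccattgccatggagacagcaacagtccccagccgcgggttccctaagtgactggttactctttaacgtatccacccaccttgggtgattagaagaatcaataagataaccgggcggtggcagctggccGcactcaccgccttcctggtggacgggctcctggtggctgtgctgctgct

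HNF4G had 28, 38.8, 26.6 and 36.7 CPM in sgP2 and 28.9, 36.1, 24.7 and 29.7 CPM in sgDual. The groups overlapped. In edgeR's test the change of sgDual over sgP2 was -0.12 on the log2 scale (SE 0.17), with an adjusted p of 0.59.

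**Figure D1:**
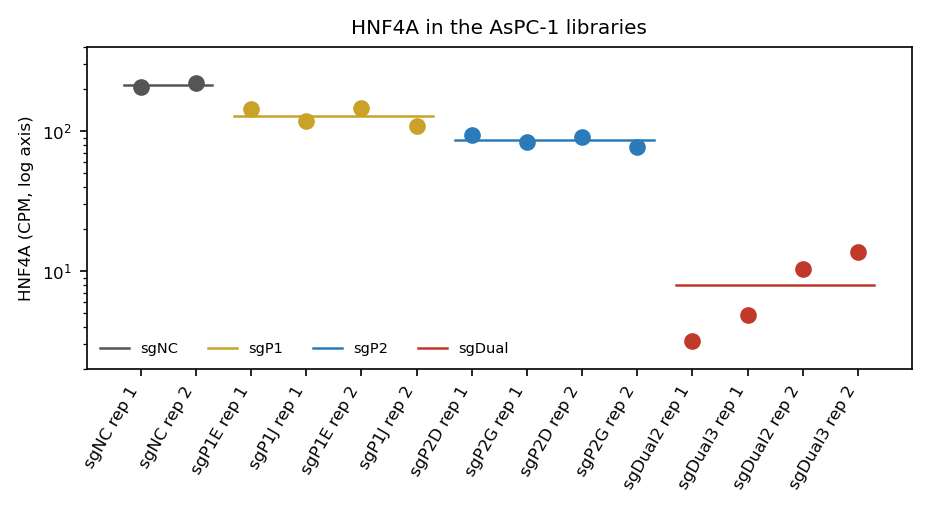
HNF4A in CPM on a log axis, 1 point per AsPC-1 library and a line at each group's mean. The 4 sgDual libraries lie between 3.19 and 13.6 CPM, below the 4 sgP2 libraries at 76.7 to 93.9 CPM.

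Over all genes, 7876 of 16992 tested (46.4%) were past the threshold of 0.05 on the adjusted p. In sgDual 3876 genes were higher (22.8%) and 4000 were lower (23.5%). At least 2-fold changes were less even, with 1094 genes higher (6.44%) and 651 lower (3.83%). For 8296 genes (48.8%) no library of 1 group overlapped the other. When the 2 libraries of each guide were summed, so that a guide counted once, 5108 genes were past the threshold. By comparison, sgP2 differed from sgNC in 581 genes (3.42%) and sgDual from sgNC in 6048 (35.6%). These contrasts share libraries and differ in the number of libraries, so their counts stand side by side only.

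**Figure D2:**
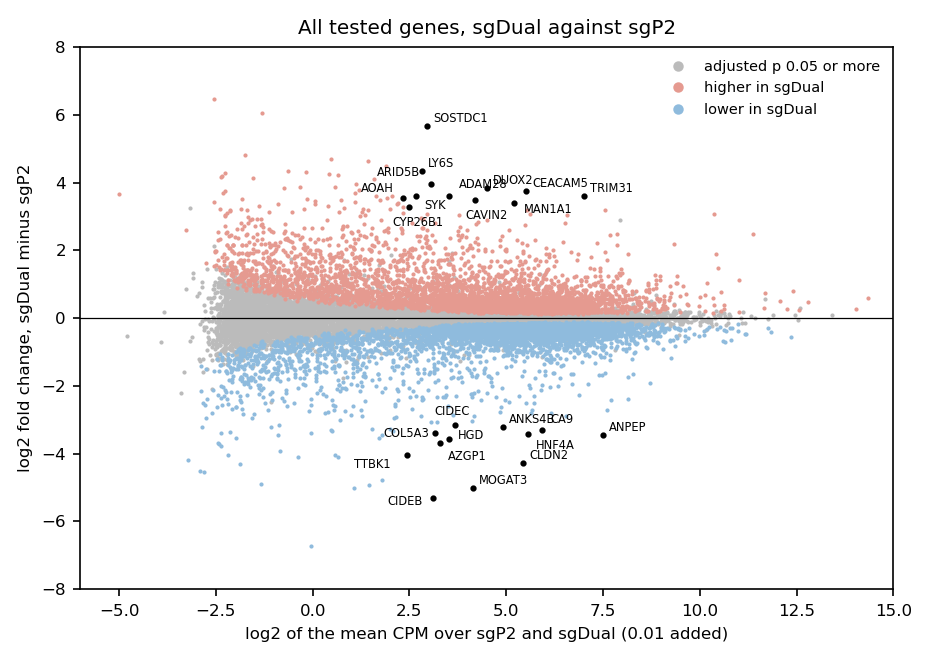
Log2 fold change of sgDual over sgP2 against the log2 mean CPM of both groups, 1 point per tested gene, coloured where the adjusted p was under 0.05. The 12 largest rises and 12 largest falls among genes at 5 CPM or more are named, from CIDEB at -5.32 to SOSTDC1 at 5.66.

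The largest falls held genes of lipid droplets and of the apical membrane. CIDEB, a lipid droplet protein of hepatocytes and enterocytes, had 16.7, 15, 20.4 and 15.7 CPM in sgP2. In sgDual it had 0.23, 0.664, 0.179 and 0.599 CPM, a 39.9-fold difference between means (log2 fold change -5.32, SE 0.27, adjusted p = 4.48e-09, edgeR). MOGAT3, an acyltransferase of triglyceride synthesis, had a mean of 34.1 ± 4.22 CPM (SD, n = 4) in sgP2 and 0.861, 1.5, 0.746 and 1.12 CPM in sgDual. Both genes were near the sgNC level or above it in sgP2, and no sgDual library came near the lowest sgP2 library. CIDEC, a relative of CIDEB that enlarges lipid droplets, had 20.1 to 25.7 CPM in sgP2 and 1.95 to 3.18 CPM in sgDual, and its log2 fold change was -3.17 (SE 0.13, adjusted p = 7.07e-10, edgeR). CIDEB (chr14:24305096-24311430, minus strand) overlaps NOP9 and LTB4R2 on the other strand, MOGAT3 lies at chr7:101195007-101201038 (minus) and CIDEC at chr3:9866711-9880254 (minus).

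CLDN2, a claudin that makes tight junctions leaky to cations, had 116 and 121 CPM with sgP2D and 48.5 and 45.1 CPM with sgP2G. In sgDual it had 3.44 to 5.86 CPM, and its log2 fold change was -4.29 (SE 0.45). The 2 sgP2 guides thus stood apart at this gene, and both were far above sgDual. ANPEP, the aminopeptidase N of brush borders, had 293, 215, 474 and 344 CPM in sgP2 and 22.6, 23.1, 41.7 and 34 CPM in sgDual (log2 fold change -3.45, SE 0.38). ANKS4B, a scaffold of the complex that links microvilli, went from 52.1 to 58.5 CPM in sgP2 to 3.73 to 8.35 CPM in sgDual. The other falls among the 12 largest were TTBK1 at -4.05, AZGP1 at -3.70, HGD, an enzyme of tyrosine breakdown, at -3.58, COL5A3 at -3.38, and CA9, a carbonic anhydrase induced by low oxygen, at -3.29. CIDEB, MOGAT3, CLDN2, HGD, ANPEP, COL5A3 and CA9 had means in sgP2 at 112% (ANPEP) to 244% (HGD) of sgNC, and none of these differences from sgNC was past the threshold. The other 5 were below sgNC in sgP2, HNF4A at 40.7%, AZGP1 at 66%, TTBK1 at 77.2%, ANKS4B at 82.7% and CIDEC at 84.1%. HGD (chr3:120628173-120682571) lies in a stretch of chromosome 3, described further on, whose genes were higher in sgP2 as a whole.

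The largest rise was that of SOSTDC1, a secreted antagonist of BMP and Wnt signalling. It had 0.155, 0.463, 0.33 and 0.223 CPM in sgP2 and 13.5, 14, 15.9 and 17.6 CPM in sgDual, a 50.5-fold difference (log2 fold change 5.66, SE 0.36, adjusted p = 7.77e-08, edgeR). SOSTDC1 lies at chr7:16461481-16530580 (minus) and ARID5B, a chromatin factor, at chr10:61901300-62096944 (plus). ARID5B had 0.889, 1.05, 0.929 and 1.11 CPM in sgP2 and 16, 15.7, 15 and 15.4 CPM in sgDual. The sgDual libraries of ARID5B differed among themselves by less than those of any other of the 12 rises in relation to their mean. DUOX2, an oxidase of mucosal surfaces, rose from a mean of 2.96 CPM to 42.2 CPM (log2 fold change 3.83, SE 0.64).

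CEACAM5, the carcinoembryonic antigen, had 2.98 and 4.38 CPM with sgP2D, 8.42 and 9.14 CPM with sgP2G, 35.4 and 65.3 CPM with sgDual2 and 92.7 and 144 CPM with sgDual3. The groups did not overlap, but the libraries of 1 guide lay together within each group. TRIM31, a ubiquitin ligase of gut epithelium, rose from a mean of 19.5 CPM to 238 CPM (log2 fold change 3.60, SE 0.42). SYK, a tyrosine kinase known best from blood cells, had 0.48 to 1.47 CPM in sgP2, 10.9 to 12.6 CPM in sgDual and 5.35 and 4.75 CPM in sgNC. CYP26B1, which breaks down retinoic acid, rose 9.71-fold from a mean of 1.03 CPM. LY6S, ADAM28, AOAH, CAVIN2 and MAN1A1 completed the 12, with log2 fold changes from 3.41 to 4.34.

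**Figure D3:**
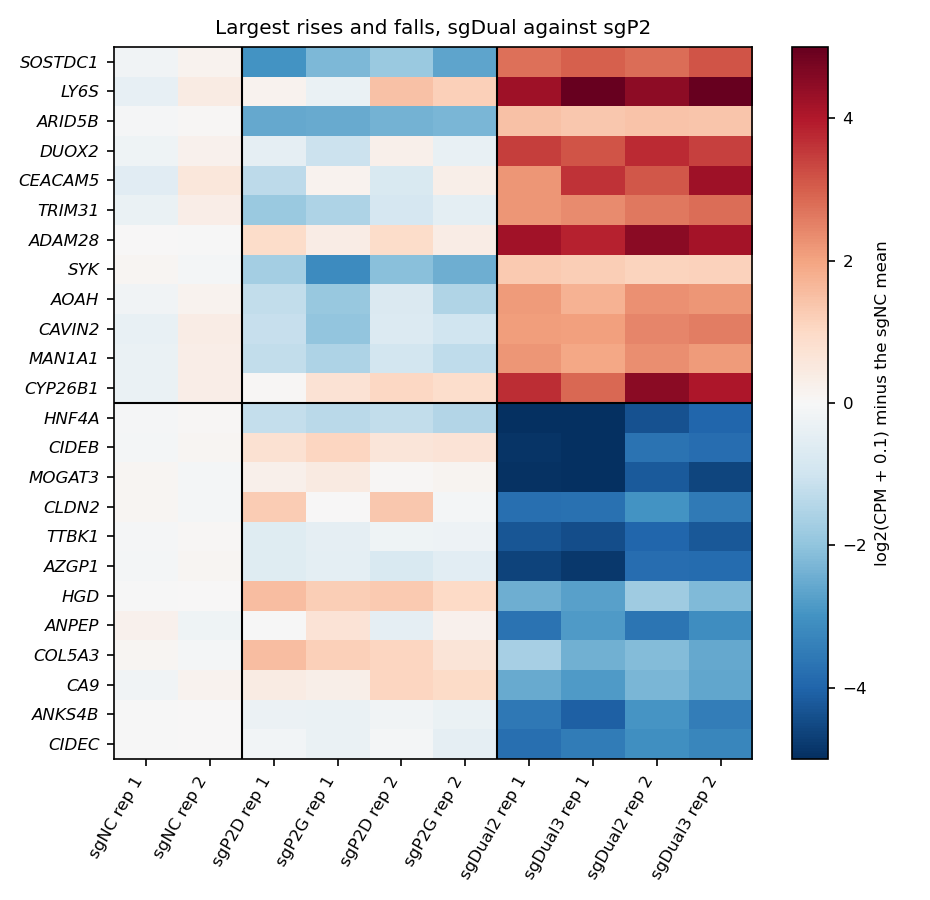
Log2(CPM + 0.1) minus the mean of the sgNC libraries, for the 12 largest rises (above the line) and 12 largest falls (below it) in 10 AsPC-1 libraries. Colours saturate at 5 either side of 0. Genes were chosen for no overlap of libraries, so every sgDual library differs from every sgP2 library in the same direction within a row.

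The promoter windows of the falls were searched for CAAAGTNCA, the core of the sequence that HNF4α binds, on both strands. RefSeq promoters matched 384 of the genes that were at least 2-fold lower in sgDual, and 10 of them (2.6%) held the motif. It was in 8 of 713 genes at least 2-fold higher (1.12%), in 89 of 11366 tested genes (0.783%) and in 1.07% of all 27305 promoters. None of the 11 matched genes among the 12 largest falls and 1 of the 9 among the largest rises held it. Letters in such a window are a description and do not show binding.

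The falls with the motif and a mean of at least 5 CPM were ABCC2, TM4SF5 and CLRN3, and their windows are shown beside that of TRIM31, the one among the largest rises. These were chosen after their values were seen. Capitals mark the motif, which reads as TGTACTTTG in ABCC2 and TGAACTTTG in TM4SF5, both on the opposite strand, and as CAAAGTTCA in CLRN3. TRIM31 holds it once on each strand. The windows are chr10:99782390-99782689 (plus strand), chr17:4771636-4771935 (plus), chr10:127892892-127893191 (minus) and chr6:30113041-30113340 (minus), all in GRCh38.p14.
ABCC2: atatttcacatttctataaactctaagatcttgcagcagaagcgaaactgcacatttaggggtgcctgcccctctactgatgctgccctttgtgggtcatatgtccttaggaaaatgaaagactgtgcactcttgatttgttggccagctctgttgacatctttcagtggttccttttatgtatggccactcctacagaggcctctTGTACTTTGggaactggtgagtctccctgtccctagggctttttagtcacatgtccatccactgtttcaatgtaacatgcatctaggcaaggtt
TM4SF5: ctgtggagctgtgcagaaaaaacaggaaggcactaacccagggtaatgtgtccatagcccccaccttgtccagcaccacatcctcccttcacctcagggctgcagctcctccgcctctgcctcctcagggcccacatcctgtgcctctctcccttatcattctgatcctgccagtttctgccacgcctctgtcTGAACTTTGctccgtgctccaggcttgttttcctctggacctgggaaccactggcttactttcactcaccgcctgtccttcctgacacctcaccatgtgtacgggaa
CLRN3: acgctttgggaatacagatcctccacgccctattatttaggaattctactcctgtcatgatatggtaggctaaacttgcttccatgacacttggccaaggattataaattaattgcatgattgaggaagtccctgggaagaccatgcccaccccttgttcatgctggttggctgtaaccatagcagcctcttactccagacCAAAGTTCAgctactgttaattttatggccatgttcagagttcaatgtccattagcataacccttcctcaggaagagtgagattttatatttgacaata
TRIM31: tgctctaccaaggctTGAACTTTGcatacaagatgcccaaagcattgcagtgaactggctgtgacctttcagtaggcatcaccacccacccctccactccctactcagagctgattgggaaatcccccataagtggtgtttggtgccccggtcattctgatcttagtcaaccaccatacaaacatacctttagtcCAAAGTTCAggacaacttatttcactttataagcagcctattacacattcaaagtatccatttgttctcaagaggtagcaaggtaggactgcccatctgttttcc

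ABCC2, an export pump of the apical membrane, fell from a mean of 349.6 CPM in sgP2 to 64.7 CPM in sgDual (log2 fold change -2.43, SE 0.28). TM4SF5, a tetraspanin-like protein of the classical tumour list, fell from 27.9 to 5.9 CPM (-2.24, SE 0.14), and CLRN3 from 32.2 to 10.4 CPM (-1.63, SE 0.19).

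Gene lists written from general knowledge were described by their counts, beside 22.8% higher and 23.5% lower over all genes and an overall median log2 fold change of -0.01. Of 18 tested brush border and enterocyte genes, 11 were lower and 1 was higher, with a median of -1.08. CDHR2, a protocadherin that ties microvilli together, had 149 to 183 CPM in sgP2 and 16.1 to 27.2 CPM in sgDual, without overlap. MYO7B, USH1C and ANKS4B, the cytoplasmic partners of CDHR2 at microvillus tips, were lower too, at -2.52, -1.17 and -3.21. MYO1A, the brush border myosin, fell from a mean of 96.9 to 22.4 CPM. SLC5A1, the glucose carrier, was the one higher, from 0.0917 to 0.316 CPM.

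Lipid absorption genes divided. Of 14 tested, 6 were lower and 2 higher, with a median of -0.26. ACSL5, which activates fatty acids, fell from 465 to 149.5 CPM (-1.64, SE 0.18) beside MOGAT3, and CD36, a fatty acid receptor, rose from 0.223 to 1.22 CPM. Of 32 cholesterol and fatty acid synthesis genes, 16 were lower and 2 higher, with a median of -0.22, and the number lower was 4 without guide sgDual3.

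Transcription factors of the endoderm moved both ways, with 10 of 29 higher and 10 lower and a median of 0.02. FOXA1, a pioneer factor, had 2.09, 3.3, 0.869 and 2.58 CPM in sgP2 and 15, 21.4, 9.82 and 15.9 CPM in sgDual. CDX2, an intestinal factor, rose from 14.2 to 32.9 CPM, GATA6 from 56.5 to 87.8 CPM and ELF3 from 145 to 347 CPM. MYRF fell from 513 to 278 CPM and the bile acid receptor gene NR1H4 from 0.665 to 0.129 CPM. The number higher was 6 without guide sgDual3, and the number lower was 6 with the libraries of each guide summed.

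Most classical pancreatic tumour genes were higher in sgDual, 13 of 21, with 4 lower and a median of 1.26. AGR2, a disulfide isomerase of mucus cells, had 20.3, 35.7, 10.7 and 15.7 CPM in sgP2 and 180.2, 209.6, 127 and 156 CPM in sgDual (log2 fold change 3.03, SE 0.42, adjusted p = 0.00013, edgeR). CEACAM6 rose from 579 to 2159 CPM, TSPAN8 from 447 to 915 CPM and S100P from 2.44 to 12.6 CPM. The 4 that fell, TM4SF5, MYO1A, BTNL8 and LGALS4, are genes of the absorptive surface or the gut epithelium. Basal-like genes were 6 higher and 4 lower of 21, with a median of 0.12 and 2 lower without guide sgP2G. KRT7, a keratin of ducts, rose from 1.02 to 6.11 CPM and AREG, an EGF receptor ligand, fell from 66 to 22.2 CPM.

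Of 13 mucin and trefoil genes 7 were higher and 1 lower, with a median of 1.45. The secreted mucin gene MUC5AC had 0.0773, 0.0309, 0.39 and 0.668 CPM in sgP2, 0.804 and 1.13 CPM with sgDual2 and 7.37 and 6.4 CPM with sgDual3. Its call was lost without guide sgDual3 (log2 fold change 1.68, adjusted p = 0.105, edgeR). MUC17, a membrane mucin of enterocytes, had 289.8 to 406 CPM in sgP2, 29.4 to 70.7 CPM in sgDual and 823 and 899.6 CPM in sgNC, so that it was lower in sgP2 than in sgNC and lower again in sgDual. With the libraries of each guide summed, 1 gene of this list was higher, and 4 were without guide sgDual3 or sgP2G.

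Cell division genes moved in 1 direction. Of 48 DNA replication genes 40 were lower and 0 higher in edgeR's test, with a median of -0.51. Of 51 mitosis genes 44 were lower and 0 higher, with a median of -0.41. The changes were mostly under 2-fold. CDC20, an activator of mitotic exit, went from 151 to 226 CPM to 78.4 to 92.9 CPM (-1.07, SE 0.14). RFC4, a subunit of the clamp loader, had 51.6 to 53.9 CPM in sgP2 and 23.8 to 28.6 CPM in sgDual (-1.01, SE 0.07). RFC4 overlaps EIF4A2 and lies in a 20 Mb window of chromosome 3 whose median gene was itself at -0.45. RFC2 had 55.6 and 52.9 CPM with sgDual2 but 27.8 and 29.1 CPM with sgDual3. At an unadjusted p under 0.05, 0 genes of either list were higher, and DESeq2 also called 0 higher. Across 20 alternatives the number lower was 39 to 42 for replication and 37 to 44 for mitosis.

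Among G1 regulators, 8 of 24 were higher and 7 lower, or 5 and 4 with the libraries of each guide summed. CDKN2B, an inhibitor of CDK4 and CDK6, had 34, 34.4, 30.7 and 31.2 CPM in sgP2 and 114, 135, 96.7 and 120.3 CPM in sgDual (log2 fold change 1.84, SE 0.16, adjusted p = 1.01e-06, edgeR). CDKN2A rose from 84.9 to 181 CPM and CDK6 from 64.1 to 123 CPM, and MYC fell from 236 to 173 CPM. CDKN2A and CDKN2B both overlap CDKN2B-AS1.

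Interferon-stimulated genes were 29 higher and 3 lower of 48, with a median of 0.62, and 17 were higher without guide sgDual3 and 18 without sgP2D. GBP2 rose from 10.8 to 30.7 CPM, IFI27 from 1.04 to 3.56 CPM and the transcription factor gene IRF1 from 16.9 to 39.9 CPM. MHC class I presentation genes were 13 higher and 1 lower of 21, with a median of 0.60. B2M, the light chain, rose from 444 to 899 CPM, and NLRC5, an activator of these genes, fell from 18 to 12.8 CPM.

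NF-κB genes went both ways, 10 higher and 7 lower of 24, and the number lower was 2 with the libraries of each guide summed and 3 without guide sgDual3 or sgP2G. LCN2, an iron-binding defence protein, had 37, 57.4, 21.8 and 30.2 CPM in sgP2 and 319, 350.3, 314 and 359.7 CPM in sgDual (3.20, SE 0.33, adjusted p = 1.19e-05, edgeR), while IL32 fell from 13.8 to 4.82 CPM. Of 17 Wnt feedback and stem cell genes 11 were higher and 2 lower, with a median of 0.57. LGR5, an R-spondin receptor of stem cells, had 23.1 to 42.9 CPM in sgP2 and 99.5 to 115 CPM in sgDual (1.80, SE 0.19), and AXIN2 rose from 3.6 to 9.45 CPM. HOX genes were 15 higher and 1 lower of 27, with a median of 0.55 and 9 higher with the libraries of each guide summed. In the EGF family EREG fell from 97.8 to 30.4 CPM, NRG4 rose from 3.98 to 12.8 CPM and EGFR from 806 to 1235 CPM.

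**Figure D4:**
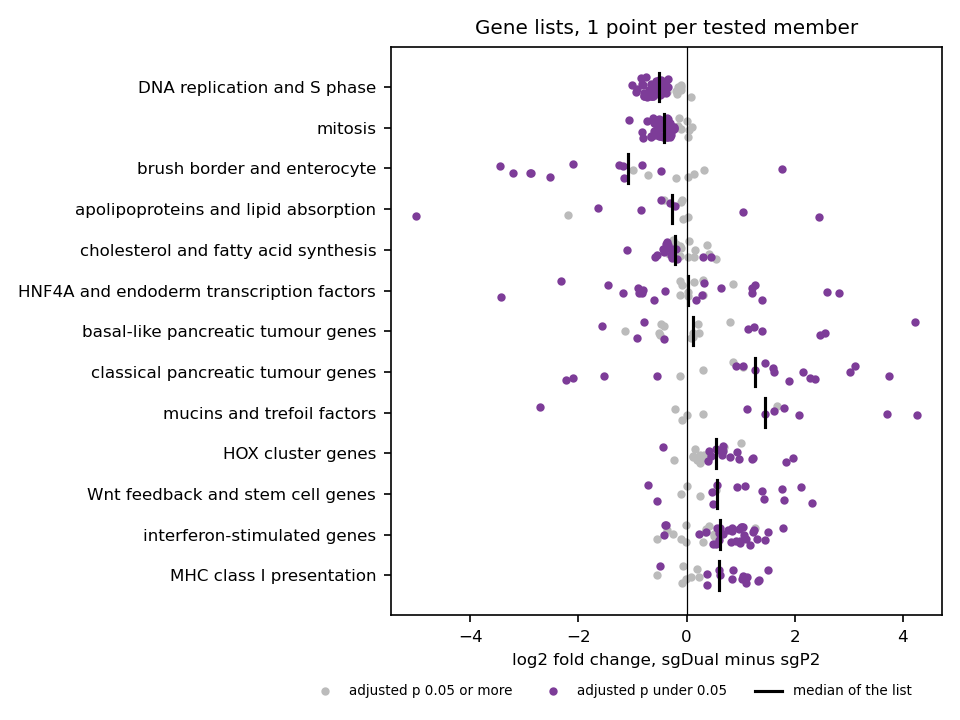
Log2 fold change of sgDual over sgP2 for each tested member of 13 gene lists, with purple points past the threshold and a bar at the list's median. Replication and mitosis genes lie mostly below 0 (medians -0.51 and -0.41), and mucin and classical tumour genes mostly above it (1.45 and 1.26).

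The next lists had medians from -0.22 to 0.16. Of 27 amino acid stress genes 12 were higher and 6 lower, with 4 higher once guides were summed and 6 without guide sgDual3 or sgP2D. Fatty acid oxidation genes were 4 higher and 7 lower of 26, mesenchymal genes 4 and 5 of 19, keratins, laminins and integrins 6 and 2 of 24, and liver plasma proteins 4 and 4 of 13. Without guide sgP2D 3 keratins, laminins and integrins were higher and 1 liver plasma protein was lower, and with the replicate block 8 fatty acid oxidation genes were higher. DDIT3, a stress factor, rose from 11 to 28.6 CPM, PDK4 from 15 to 69.6 CPM, and TGFBI fell from 688 to 363 CPM. Markers of other cells were summed per library: fibroblast markers ran from 134 to 169.6 CPM in sgP2 and from 281 to 303 CPM in sgDual, almost all of it LUM (means 151 and 285 CPM). Leukocyte markers ran from 18.1 to 22.6 CPM and from 57.8 to 83.7 CPM, mainly LYZ, which is also a classical tumour gene. Endothelial markers ran from 32.3 to 38.5 CPM and from 39.6 to 47.2 CPM, and neuroendocrine and acinar markers were at or under 1.49 CPM. THY1 and KDR had no counts in these libraries. Of 11 tested epithelial markers 4 were higher (median 0.55), of 4 endothelial markers 3 (0.44), of 7 fibroblast markers 2 (0.03) and of 3 leukocyte markers 1 (0.18). No member of these marker lists was lower in edgeR's test, and at an unadjusted p under 0.05 the numbers lower were 0, 0, 1 and 1, while DESeq2 called 0 lower. The 1 tested neuroendocrine and acinar marker, at 0.49, was not past the threshold.

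Genes on opposite sides of sgNC were then sought. For 99 genes (0.583%) sgP2 and sgDual were each past the threshold against sgNC in opposite directions. In 70 of them sgP2 was below and sgDual above sgNC, and in 29 the reverse. In all 99 no sgP2 or sgDual library overlapped sgNC, which the choice of genes past the threshold on both sides makes likely. A looser count, genes past the threshold between sgDual and sgP2 with all libraries on opposite sides of sgNC, gave 1113 (6.55%). Both directions rest on the same 2 sgNC libraries. Without either one of them 8 genes were left, and without sgP2D replicate 1 there were 45, so the count is not a stable one. The sgP1 group was past the threshold against sgNC at 1 of the 99. The share of all genes past it in that contrast is not given here, so this count cannot be weighed.

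With sgP2 below sgNC, SOSTDC1 stood at 1.68 and 2.18 CPM in sgNC, against the values given above for sgP2 and sgDual. Its log2 fold changes against sgNC were -2.68 (adjusted p = 0.00709) in sgP2 and 2.98 (6.31e-05) in sgDual, in edgeR's test. ARID5B, with 5.48 and 6.1 CPM in sgNC, gave -2.53 (6.44e-05) and 1.42 (0.000169) in the same test. TLR4, the receptor for lipopolysaccharide, had 4.6, 3.8, 5.45 and 4.71 CPM in sgP2, 11.1 and 10.9 CPM in sgNC and 23, 23.2, 22.5 and 23.4 CPM in sgDual. Its 3 groups were evenly spaced, at -1.24 and 1.07. MAN1A1, a mannosidase of glycoprotein processing, had 5.06 to 7.78 CPM in sgP2, 11.9 and 18.6 CPM in sgNC and 57.1 to 75.9 CPM in sgDual. TNFRSF11B, PIP5K1B, GASK1B and IGSF9B had the same order, with sgP2 at -1.01 to -1.49 and sgDual at 0.96 to 1.42. The BMP ligand genes BMP4 (-0.57 and 1.59) and BMP7 (-0.60 and 0.60), the desmosomal cadherin genes DSC2 (-0.84 and 0.65) and DSC3 (-0.59 and 1.43), and IRF1, NR5A2 and WNT11 of the lists above were also among the 70.

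With sgP2 above sgNC, OSBPL6, an oxysterol-binding protein, had 36.2, 34, 28.7 and 26.8 CPM in sgP2, 12.5 and 12.6 CPM in sgNC and 6.23, 6.64, 7.37 and 7.95 CPM in sgDual. IL20RB, a cytokine receptor subunit, had 55.5 to 58.7 CPM in sgP2, 26.2 and 31 CPM in sgNC and 10.0 to 10.5 CPM in sgDual. UBASH3B, a phosphatase that acts on tyrosine kinases, had 55 to 82.2, 34.2 to 35.1 and 11.2 to 15.2 CPM in the same order. PFKFB3, which activates glycolysis, had 89.6 to 106, 60.8 to 66.4 and 36.4 to 44.8 CPM. ADA, ISM1, STMN3 and MACROH2A2 followed the same order, with sgP2 at 0.70 to 1.30 and sgDual at -0.76 to -0.95. IL20RB overlaps NCK1 and ADA overlaps PKIG, so their counts are uncertain. The same holds for other genes named here, among them SOSTDC1 (LRRC72), MACROH2A2 (AIFM2), CLDN2 (MORC4 and RIPPLY1), CA9 (ARHGEF39), ANKS4B (CRYM) and KRT7 (KRT86). TLR4 lies at chr9:117704175-117724730 and OSBPL6 at chr2:178194481-178402891, both on the plus strand. Of the 99 genes, 38 stayed past the threshold on both sides in every fit that left out 1 sgP2 or sgDual library. ARID5B, DSC2, OSBPL6, TLR4 and an unnamed gene were among them, and also stayed when either sgNC library was left out. SOSTDC1, IL20RB, UBASH3B and PFKFB3 were among the 38 too, but stayed in neither of those fits, where sgNC is 1 library. With the libraries of each guide summed none of the 99 stayed, but sgNC is then 1 library.

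**Figure D5:**
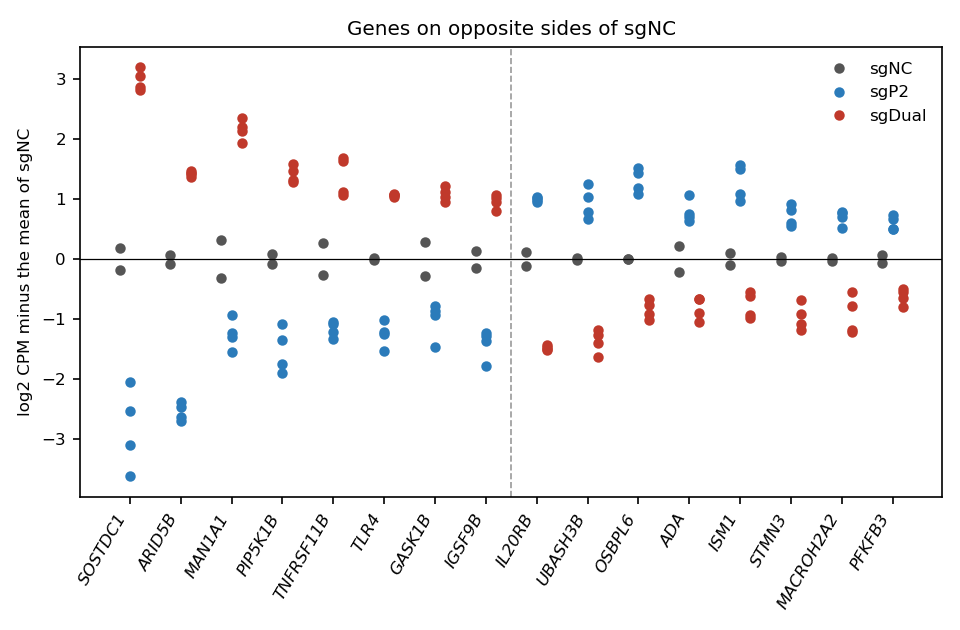
Log2 CPM minus the mean of the 2 sgNC libraries, 1 point per library, for 8 genes with sgP2 below and sgDual above sgNC (left of the dashed line) and 8 with the reverse. No sgP2 or sgDual point overlaps the sgNC points of its gene, as the choice of genes required.

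Many of the 99 genes lay close together on the chromosomes. In the part of chromosome 1 from 140 Mb on, 19 were low in sgP2 and 0 high, and on chromosome 12 between 40 and 80 Mb 8 were low and 0 high. On chromosome 3 from 100 Mb on, 13 were high and 0 low. These stretches were chosen after the values were seen, hold 8.67% of the genes tested, and hold 40 of the 99 (40.4%). Outside them 59 remained, 43 low in sgP2 and 16 high. Of the 47 genes at least 0.5 from sgNC on both sides, 40 lay outside, so the stretches held mainly the small changes. Genes named above lie in all 3 stretches, among them HGD, RFC4 and IL20RB on chromosome 3 and ELF3 and NR5A2 on chromosome 1. On chromosome 12 they include KRT7, KRT8, MYO1A, TSPAN8, LGR5, LYZ and DDIT3.

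Medians over these stretches, taken over genes past the threshold and not past it alike, were shifted too. On chromosome 1 the median over 448 genes at 5 CPM or more relative to sgNC was between -0.28 and -0.22 in the 4 sgP2 libraries and between 0.06 and 0.07 in the 4 sgDual libraries (log2). On chromosome 3, over 293 genes, the sgP2 libraries lay at 0.23 to 0.30 and the sgDual libraries at -0.19 to -0.14. On chromosome 12, over 208 genes, they lay at -0.25 to -0.20 and 0.07 to 0.12. The sgP1 libraries ran from -0.18 to 0.02, from -0.05 to 0.22 and from -0.14 to 0.02. In windows of 20 Mb, 19 of 133 had a median log2 fold change of sgDual over sgP2 past 0.2 in size, 12 of them lower. Inside those windows 57.7% of tested genes were past the threshold and outside them 44.7%, and 6596 genes were past it outside. Of these windows, the one with the highest median, 0.42, was on chromosome 18 from 20 to 40 Mb, outside the stretches above. It holds 3 of the 99 genes, DSC2 and DSC3 among them, and also GATA6. Its medians against sgNC were -0.15 in sgP2 and 0.15 in sgDual. Replication and mitosis genes outside the windows past 0.2 were 36 of 42 and 39 of 43 lower. Other lists moved more. Basal-like genes outside were 4 higher and 4 lower of 13, with a median of -0.42 in place of 0.12. Fatty acid oxidation genes outside were 4 higher and 3 lower of 21. Brush border and classical tumour genes outside had medians of -1.08 and 1.52. What moved whole stretches was not tested, and DNA copy number was not measured in these libraries.

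Guides of 1 target were compared in a fit by guide. The 2 sgDual guides differed in 150 genes (0.883%) and the 2 sgP2 guides in 288 (1.69%). TMC6 had 19.8 and 18.4 CPM with sgDual2 but 0.388 and 1.2 CPM with sgDual3, and FBXO41 had 38.1 and 36.9 CPM against 1.58 and 2.86 CPM. PLBD2 had 161 and 155 CPM with sgDual2, 6.53 and 13 CPM with sgDual3 and 88.9 to 92.7 CPM in sgP2. With sgP2G, PRSS23, a serine protease, had 0.809 and 0.637 CPM against 111 and 119 CPM with sgP2D, and ARFIP2 1.35 and 0.955 CPM against 54.1 and 53.3 CPM. QPRT, an enzyme of NAD synthesis, had 0.03 and 0 CPM with sgP2G and 7.85 and 12.5 CPM with sgP2D. FBP1, an enzyme of gluconeogenesis, was low with 1 guide of each target, at 0.464 and 0.957 CPM with sgP2D and 7.63 and 13.2 CPM with sgDual2, against 68.3 to 145 CPM with the other guides. A mean over guides describes none of these libraries, and none of these 7 genes was past the threshold for sgDual against sgP2. Other genes that differed between guides were past it, among them CLDN2, MUC5AC and RFC2 above. MYCN, with 0.0773 and 0.185 CPM with sgP2D, 4.47 and 5.25 CPM with sgP2G and 0.287 to 0.507 CPM in sgDual, was called lower (adjusted p = 0.0457, edgeR) and was at 1.49 without guide sgP2G.

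Induction of HNF4A in the other lines gave a second view of the same genes, from libraries that share none with AsPC-1. In Panc10.05 and BxPC3 doxycycline was used to induce HNF4A as P1-a2 or as P2-a8, with 2 libraries per group, at doses that differ between lines and in Panc10.05 between isoforms. The isoforms of a line share their NC controls, so values stand side by side. In Panc10.05, 31.5% of genes were higher and 30.5% lower with P1-a2, and 23.7% and 22.5% with P2-a8. In BxPC3 the shares were 17.1% and 14.9% with P1-a2, and 4.3% and 2.69% with P2-a8.

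Of 448 genes at least 2-fold lower in sgDual and tested in Panc10.05, 243 (54.2%) rose with P1-a2 and 95 (21.2%) fell, and 205 (45.8%) rose with P2-a8. In BxPC3, of 465 such genes, 190 (40.9%) rose with P1-a2 and 95 (20.4%) with P2-a8. Seen from the other list, these were 5.03%, 5.68%, 7.03% and 14.5% of the genes that rose in each comparison. CIDEC gave log2 fold changes of 9.98 and 8.18 in Panc10.05 with P1-a2 and P2-a8, and 9.63 and 3.68 in BxPC3, the last not past the threshold (adjusted p = 0.29, edgeR). CIDEB gave 7.69, 5.47, 1.83 and 0.27 in the same order, again with the last not past it (0.211). COL5A3, not tested in Panc10.05, was at 0.06 and -1.49 in BxPC3, where the second value was past the threshold. MOGAT3 gave 5.54 and 2.95 in Panc10.05 and 9.13 and 7.07 in BxPC3, and CA9 gave 4.98, 3.52, 4.09 and 4.19 in the same order. The shares that rose in these comparisons among all genes tested in both lines were 31.7%, 23.7%, 17.6% and 4.27%. Of the genes at least 2-fold higher in sgDual, 41.9%, 22.8%, 31.2% and 9.81% fell, beside 31.7%, 23.9%, 15% and 2.51% of all genes. Of the same genes 26.1%, 33.1%, 13.3% and 5.86% rose. With P2-a8 in Panc10.05 more of them thus rose (256) than fell (176). Some genes rose in both settings. TRIM31 rose by 9.85 and 9.06 in Panc10.05, ADAM28 by 2.54 and 3.44 and SYK by 2.12 and 2.73. In BxPC3 TRIM31 rose by 0.74 with P1-a2 and was at -0.09 with P2-a8, not past the threshold. SYK in BxPC3 was lower with P1-a2 at -0.37 and at -0.15 with P2-a8, and ADAM28 was at -0.29 and -0.16, the last 3 values not past the threshold. CEACAM5 in BxPC3 was at -1.83 and -1.06.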

How the data were processed

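The authors deposited counts per gene for each cell line, whole numbers with no normalization. The submitters' processing notes name STAR 2.7.9a, cutadapt 1.16, featureCounts 1.6.3, DESeq2 1.36.0 and the build GRCh38, and the annotation and strand setting are not given in the sources used here. Per the labels' protocols, poly(A) RNA went into directional, paired-end libraries.

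The 14 AsPC-1 libraries were fitted together as 4 groups with edgeR 4.0.16 in R 4.3.3: filterByExpr, TMM scaling, robust glmQLFit and glmQLFTest, with Benjamini-Hochberg adjustment over 16992 genes. The SE is the absolute log2 fold change over the square root of F. Genes named are HNF4A, HNF4G, the 12 largest changes each way (past the threshold, 5 CPM or more, no overlap of libraries), up to 8 each way on opposite sides of sgNC, up to 4 per list and 3 per guide contrast; others named in the text were chosen after their values were seen. The members, the 26 lists and the tests were chosen with earlier results of these data known. Alternatives were RLE factors, library totals, no filter, DESeq2 1.42.0, fewer groups, guides summed, a replicate block, and each library or guide left out. The scripts were tested on simulated data. Replicate libraries differed beyond sampling noise, so none was counted as a duplicate. Some genes that these rules name are not reported here.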

Additional observations from a re-analysis of the deposited data

Results flagged for a closer look

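Of 264 groups of 4 libraries examined over the named genes, 2 had a library far from the others. This is fewer than the rate of about 1 in 20 that the rule gives by chance. That rate takes the 4 libraries as alike, though they come from 2 guides. ANKS4B in sgP2D replicate 2 was at 58.5 CPM, with the other sgP2 libraries at 52.1 to 53.1 CPM. NRG4 in sgP2D replicate 1 was at 2.47 CPM, with the others at 4.44 to 4.52 CPM.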

How the results depend on the processing

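Of 2620 recomputed values of 131 named genes, 2498 kept direction and side of the threshold, 89 lost the call, 22 gained one and 11 changed sign. Counted by gene, 33 of the 131 changed in call or direction in at least 1 alternative. The count of genes between sgDual and sgP2 ran from 6866 to 7376 when 1 library was left out, was 5108 with guides summed and 1745 with an added limit of 1 on the log2 fold change. Without 1 guide, 5854 to 6277 genes were past the threshold between sgDual and sgP2. HNF4A stayed past the threshold throughout, at -3.16 to -3.82 without 1 library. With guides summed, where sgNC is 1 library, none of the 99 genes on opposite sides of sgNC stayed past the threshold. The 99 became 211 with DESeq2, 352 with only the 3 groups fitted and 381 with 7 groups by guide. They became 47 with a limit of 0.5 on each side and 59 outside the 3 chromosome stretches, an alternative added after seeing the data. Without guide sgDual2, sgDual3, sgP2D or sgP2G they were 46, 50, 58 and 36. Without 1 library they ran from 8 (either sgNC library) to 77, with 53 without sgP2G replicate 1 and 61 without sgP2G replicate 2 or sgDual3 replicate 2. Same-numbered libraries were not treated as pairs, by a rule that needs every correlation over 0.1. Over all 7 guides 15 of 21 were over it (0.08 to 0.34, median 0.14). Among the sgP2 and sgDual guides 2 of 6 were (0.08 to 0.28). All these correlations were positive, and the main fit held no term for replicate number. The replicate block gave 8414 genes between sgDual and sgP2, 208 on opposite sides, and 558 and 778 between the sgDual and sgP2 guides. Without a filter these guide counts were 417 and 649. Signs changed without guide sgDual3 for HNF4G (0.00), TMC6 (0.20), FBXO41 (0.25), PLBD2 (0.79), FBP1 (-1.88) and ZNF488 (-0.40), without sgP2D for ZNF488 (-0.03), and without sgP2G for MYCN (1.49) and ARFIP2 (-0.33). PLBD2 ran from -0.64 to 0.26 without 1 library. The cause was not tested. A fit leaving a guide with 1 library assumes that it varies like the others.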
